A study of Mus musculus with 4 samples.

Results

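Described here are 10 genes of the microRNA pathway, chosen by name among the 32285 genes counted in single cells of mouse spermatogonial cultures. They are the Argonaute genes Ago1, Ago2, Ago3 and Ago4, the nuclear processing genes Drosha and Dgcr8, the export gene Xpo5, the cytoplasmic processing genes Dicer1 and Tarbp2, and the effector gene Tnrc6a. All 10 were found by symbol and had UMIs (unique molecular identifiers, 1 per captured RNA molecule). The cultures were founded with testis cells of 3 male mice at postnatal day 6, enriched for Thy1 by magnetic sorting, and were grown on STO cells, a mouse embryonic fibroblast line used as a feeder layer. Vehicle cultures were given PBS, and EV cultures were given extracellular vesicles of whole testes at postnatal day 7, at 1 μg/mL for 3 days. Counts of vehicle 1, vehicle 2 and EV 1 were used, and the expression of EV 2 was not analysed here. The labels call the libraries biological replicates, and the study describes them as independent samples.

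MicroRNAs are cut from longer transcripts in steps. In the nucleus, the RNase III enzyme Drosha and its RNA-binding partner Dgcr8 release a hairpin, which exportin 5, the product of Xpo5, carries to the cytoplasm. There Dicer, with Tarbp2 as a partner, trims the hairpin to a duplex, and 1 strand is loaded into an Argonaute protein, which recruits Tnrc6 proteins and through them the enzymes that shorten and decap the target. Of the mouse Argonautes, Ago2 is the slicer in the textbook sense. Male germ cells also carry PIWI Argonautes, which bind piRNAs instead. The let-7 family is a further link with spermatogonia, since Lin28a and Lin28b bind its hairpins and block their processing.

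The study turned to let-7b and let-7c as cargo of the EVs, so their mature sequences are shown first, from RefSeq (GRCm38.p6), with the seed (bases 2 to 8 from the 5′ end) in capitals. Both share the seed. Mirlet7b lies on chromosome 15 (chr15:85707325-85707346, plus strand), beside Mirlet7c-2 (chr15:85706616-85706637, plus strand), and Mirlet7c-1 lies on chromosome 16 (chr16:77599672-77599693, plus strand).
let-7b-5p: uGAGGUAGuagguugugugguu
let-7c-5p: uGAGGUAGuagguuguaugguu

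The complement of that seed, CTACCTC, was searched on the sense strand of 1 GENCODE vM21 transcript per gene, the one with the longest coding sequence. Dicer1 held 4 matches in its coding sequence (5718 bases), Xpo5 2 and Ago3 1. In the 3′ UTR, Ago2 held 3 matches (11067 bases of UTR), while Ago3 and Tarbp2 held 1 each. Over 21901 protein-coding genes, 12.8% had a match in the coding sequence and 7.52% in the 3′ UTR, and these shares were not adjusted for length. A match is a run of letters and was not measured as a binding site. The matches of Dicer1, Ago2 and Tarbp2 are shown with the match in capitals.
Dicer1, coding 1: tcagcctactgtgttCTACCTCt
Dicer1, coding 2: tacctgtacaaccaaCTACCTCa
Dicer1, coding 3: ggaacgctaacacatCTACCTCa
Dicer1, coding 4: agatgcgattttggaCTACCTCa
Ago2, 3′ UTR 1: acagatgcataaaagCTACCTCt
Ago2, 3′ UTR 2: caggtggcctctgtcCTACCTCc
Ago2, 3′ UTR 3: ttttacaatgtggatCTACCTCa
Tarbp2, 3′ UTR: ccagaggtgccatctCTACCTCt

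Cells were split into a germ class (at least 2 UMIs of Dazl, Tex15, Stk31 and Epcam together, and more than of the feeder genes) and a feeder class (the reverse, with Col1a1, Col1a2, Sparc and Dcn). None of the 10 genes entered that rule. The vehicle libraries held 4411 and 4783 germ cells and 2357 and 2473 feeder cells, and EV 1 held 227 germ cells and 2508 feeder cells. In EV 1, 42.8% of kept cells fell into neither class, against 16.0% to 18.1% in the vehicle libraries. The germ class of EV 1 summed to 325012 UMIs, and the other sums lay between 6784725 and 11013433 UMIs. At most 22 barcodes were shared between any pair of libraries. The classes were checked with genes outside the rule. The 10 germ markers summed to 1007 and 1033 CPM (counts per 1000000 UMIs of the class) in the vehicle germ classes, to 738 CPM in that of EV 1, and to 10.2 to 31.7 CPM in the feeder class. The 8 feeder markers summed to 3552 to 4022 CPM in the feeder class and 267 to 585 CPM in the germ class. Feeder marker RNA in the germ class therefore stood at 9.18%, 7.25% and 14.5% of its feeder level in vehicle 1, vehicle 2 and EV 1, and germ marker RNA in the feeder class at 3.15%, 2.63% and 1.38% of its germ level. Markers of Leydig, peritubular myoid, endothelial cells and macrophages summed to at most 33.8 CPM in either class, with Hsd3b1, Insl3, Cyp17a1 and Adgre1 at 0 in the germ class. The Sertoli list summed to 283 to 305 CPM in the feeder class, of which Sox9 gave 275 to 298 CPM.

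The first question was how the machinery differs between spermatogonia and the feeder cells they grow on. The Argonaute genes differed by class in opposite directions. In the vehicle libraries, Ago3 and Ago4 were higher in germ cells, Ago2 was higher in feeder cells, and Ago1 did not pass the test. Of the 10 genes, 7 were higher in germ cells and 2 in feeder cells (edgeR's quasi-likelihood test, adjusted p under 0.05), where 43.0% and 43.1% of the 16441 genes tested were called in these directions. A call alone was thus common among all genes, and the sizes are given for each. Fold values and log2 differences of the fits are scaled by TMM factors on top of UMI totals, unless another scale is named. They can therefore differ from ratios of the printed CPM.

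Ago2 measured 28.9 and 32.1 CPM in the germ cells of vehicle 1 and vehicle 2, and 89.7 and 95.1 CPM in the feeder cells. The classes did not overlap, and the difference on the TMM scale was 3.99-fold (log2 -2.0, SE 0.07, adjusted p = 5.61e-42 by edgeR's quasi-likelihood test). In CPM the log2 difference was -1.63 in vehicle 1 and -1.57 in vehicle 2. Germ cells held 32.2% to 33.7% of the feeder level in CPM, which is above the 7.25% to 14.5% seen for the feeder markers. EV 1 had 36.9 CPM in germ and 111 CPM in feeder cells, the same order of the classes. Ago2 (chr15:73095844-73184935, minus strand) overlaps the 3′ end of Chrac1 on the other strand by 1711 bases. Chrac1 was also higher in feeder cells, by less (log2 -1.19, SE 0.06), and the sources used here do not say how strand was handled, so that reads in the overlap make the Ago2 value uncertain.

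Ago3 showed the reverse, with 104 and 125 CPM in vehicle germ cells and 40.4 and 36.4 CPM in vehicle feeder cells. All germ values lay above all feeder values, EV 1 included (111 and 38.2 CPM), and the difference was 2.28-fold (log2 1.19, SE 0.07, adjusted p = 4.03e-28 by edgeR). Between the classes, Ago4 was mostly a germ transcript in these 3 libraries. Vehicle germ cells had 67 and 94 UMIs and vehicle feeder cells 4 and 2, while EV 1 had 4 UMIs in germ cells and 0 in feeder cells. Kept cells of neither class held 11 and 11 UMIs in the vehicle libraries (4.81 and 4.92 CPM) and 0 in EV 1. In CPM this was 7.09 and 8.54 against 0.418 and 0.186 in the vehicle libraries (log2 4.28, SE 0.38, adjusted p = 5.60e-17 by edgeR), and 12.3 against 0 in EV 1. With so few feeder UMIs the size of the difference moved with the cells used, from 3.75 with doublets kept to 5.02 in cells with no marker UMI of the other class and 5.68 without vehicle 1. The 6 UMIs of the vehicle feeder cells stood at 5.90% and 2.18% of the germ level, beside 3.15% and 2.63% for germ marker RNA in that class. Ago1 measured 22.2 and 22.3 CPM in vehicle germ cells and 19.7 and 17.3 CPM in vehicle feeder cells, with a fitted log2 difference of -0.12 (SE 0.11, adjusted p = 0.268 by edgeR) and an interval from -0.33 to 0.08. In EV 1 it measured 15.4 CPM in germ cells (5 UMIs) and 16.7 CPM in feeder cells.

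Summed, the 4 Argonaute genes came to 162 and 188 CPM in vehicle germ cells and 150 and 149 CPM in vehicle feeder cells, with 175 and 166 CPM in EV 1. The order of the classes in these sums depended on the scale. Per cell the sums were 0.347 and 0.433 UMIs in vehicle germ cells against 0.609 and 0.648 UMIs in vehicle feeder cells. The log2 difference in CPM was 0.11 and 0.34, and it was -0.29 and -0.06 once the shift of 0.40 between the CPM and TMM scales was taken off. Within that sum the classes differed. Ago3 supplied 63.2% to 66.6% of the Argonaute UMIs of germ cells and 23.0% to 26.9% of those of feeder cells. Ago2 supplied 17.0% to 21.1% in germ cells and 59.7% to 67.0% in feeder cells. The share of Ago1 was 8.77% to 13.7% in germ cells and 10.0% to 13.1% in feeder cells, ranges that overlap. These are shares of UMIs, not scaled to transcript length, and they are compared for the same gene between classes.

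**Figure D1:**
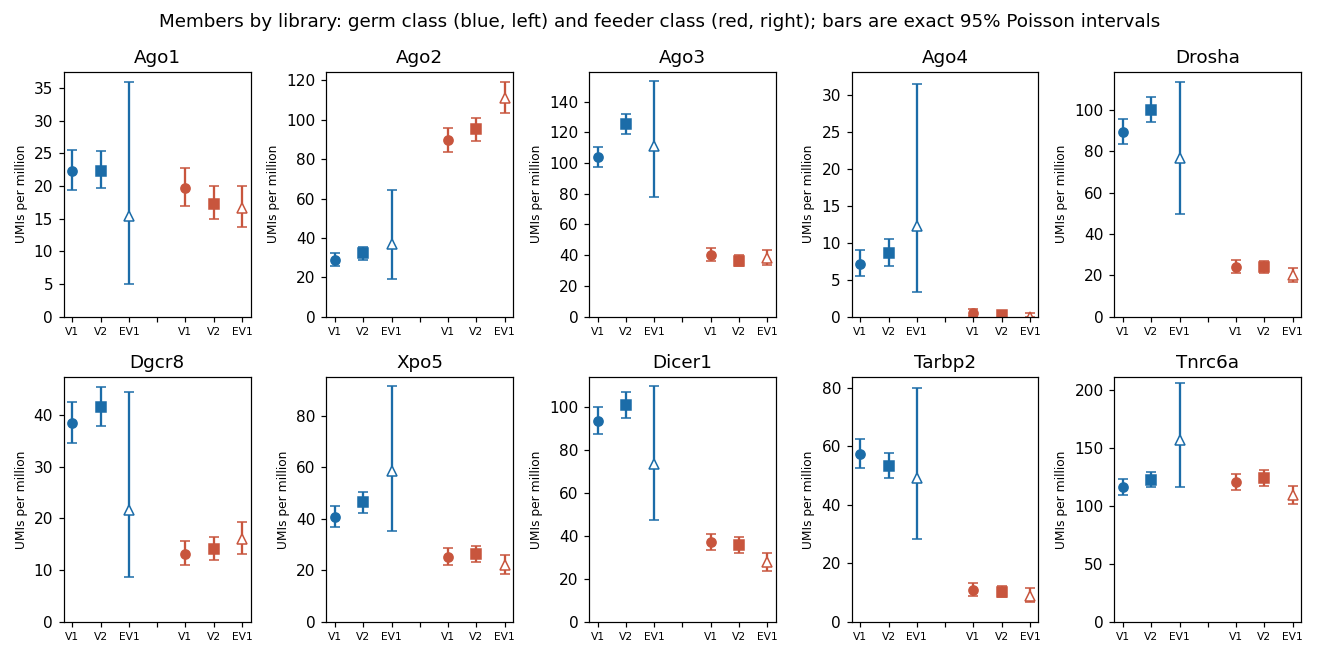
Level of each of the 10 genes in CPM (linear axis from 0) in vehicle 1 (V1), vehicle 2 (V2) and EV 1 (EV1), for germ cells (blue, left) and feeder cells (red, right), with exact 95% Poisson intervals. Ago2 is the gene with all feeder values far above the germ values, Ago4 is near 0 in feeder cells, and the intervals of EV 1 germ cells are wide because they rest on 4 to 51 UMIs.

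Ago1, Ago3 and Ago4 are neighbours on chromosome 4, on the minus strand within 201.8 kb (chr4:126331704-126533472 in GRCm38), and no other protein-coding gene of that annotation lies in the interval. Ago3 and Ago4 were called higher in germ cells while Ago1 between them was not called. Their promoters (250 bases before to 50 after the start of the gene, RefSeq, GRCm38.p6, minus strand) are shown for this contrast between neighbours, with GC boxes (GGGCGG on either strand, no overlap counted) in capitals. The windows are chr4:126429493-126429792 for Ago3, chr4:126468582-126468881 for Ago1 and chr4:126533409-126533708 for Ago4. Promoters were given for 9 of the 10 genes.
Ago3: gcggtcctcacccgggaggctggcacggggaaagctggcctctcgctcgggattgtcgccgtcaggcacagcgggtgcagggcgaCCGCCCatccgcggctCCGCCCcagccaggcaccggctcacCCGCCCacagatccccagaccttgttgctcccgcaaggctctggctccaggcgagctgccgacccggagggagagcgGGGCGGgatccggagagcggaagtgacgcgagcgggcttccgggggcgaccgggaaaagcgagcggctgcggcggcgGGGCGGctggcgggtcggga
Ago1: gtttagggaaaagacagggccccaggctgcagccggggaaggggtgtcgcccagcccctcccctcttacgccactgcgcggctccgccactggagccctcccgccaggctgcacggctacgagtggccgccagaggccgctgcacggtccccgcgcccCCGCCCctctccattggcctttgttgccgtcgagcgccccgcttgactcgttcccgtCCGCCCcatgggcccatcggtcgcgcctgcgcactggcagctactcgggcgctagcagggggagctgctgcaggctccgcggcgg
Ago4: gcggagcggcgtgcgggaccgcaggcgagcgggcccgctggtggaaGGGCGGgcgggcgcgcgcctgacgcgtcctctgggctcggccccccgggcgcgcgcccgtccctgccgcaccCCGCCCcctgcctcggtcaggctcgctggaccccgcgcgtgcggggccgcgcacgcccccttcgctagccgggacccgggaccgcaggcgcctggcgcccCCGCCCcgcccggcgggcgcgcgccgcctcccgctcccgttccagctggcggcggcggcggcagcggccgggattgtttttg
The 3 windows held 5, 2 and 3 GC boxes for Ago3, Ago1 and Ago4, and 35.7% of the 32851 promoters of that length held at least 1. GC content was 74.7%, 73.0% and 83.3%, against a median of 52.7%, and CpG pairs numbered 37, 31 and 54, against a median of 7. All 3 windows were rich in GC, the one whose gene was not called included. RefSeq gave a second window for Ago1 (chr4:126468534-126468833), not shown, with 2 GC boxes, 75.7% GC and 38 CpG pairs.

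All 5 genes of hairpin cutting and export were called higher in vehicle germ cells (Xpo5 not in every fit), as were 43.0% of all genes tested. Tarbp2, the RNA-binding partner of Dicer, had the widest difference of the 5, with 57.3 and 53.2 CPM in germ cells against 11.0 and 10.1 CPM in feeder cells (3.96-fold, log2 1.99, SE 0.10, adjusted p = 7.58e-31 by edgeR). Its germ cells in EV 1 measured 49.2 CPM and its feeder cells 8.84 CPM, so that every germ value lay above every feeder value. Drosha, the nuclear RNase III, measured 89.4 and 100 CPM in germ cells and 23.8 CPM in the feeder cells of both vehicle libraries (3.02-fold, log2 1.59, SE 0.07, adjusted p = 2.04e-33 by edgeR). Its partner Dgcr8 measured 38.4 and 41.5 CPM against 13.2 and 14.0 CPM (2.23-fold, log2 1.15, SE 0.10, adjusted p = 8.79e-18 by edgeR). In EV 1 the classes were closer for Dgcr8, with 21.5 CPM (7 UMIs) against 16.1 CPM. That is a CPM ratio of 1.34, against 2.92 and 2.96 in vehicle 1 and vehicle 2. The end of Dgcr8 overlaps Trmt2a on the other strand by 825 bases, and Trmt2a was also higher in germ cells (log2 0.91, SE 0.14).

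Dicer1 measured 93.7 and 101 CPM in germ cells and 37.1 and 35.7 CPM in feeder cells (2.03-fold, log2 1.02, SE 0.06, adjusted p = 8.26e-25 by edgeR). The germ and feeder values of all 3 libraries were apart, with 73.8 and 27.7 CPM in EV 1. Xpo5, the export factor, had the smallest of these differences, with 40.8 and 46.3 CPM against 25.2 and 26.2 CPM (1.29-fold, log2 0.36, SE 0.08, adjusted p = 5.93e-05 by edgeR). The call of Xpo5 was lost with DESeq2 (adjusted p = 0.115) and when vehicle 1 (adjusted p = 0.124) or vehicle 2 (adjusted p = 0.188) was left out and EV 1 took its place in the fit. The log2 difference itself was 0.38, 0.54 and 0.45 in these fits.

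Tnrc6a, the effector that Argonaute proteins recruit, measured 116 and 123 CPM in vehicle germ cells and 121 and 124 CPM in vehicle feeder cells. In EV 1 it was higher in germ cells (157 CPM, 51 UMIs) than in feeder cells (110 CPM). Its vehicle germ and feeder values overlapped, and the call as higher in feeder cells (log2 -0.44, SE 0.05, adjusted p = 2.49e-13 by edgeR) depended on the scaling. It held with DESeq2 size factors (log2 -0.42, adjusted p = 1.23e-12 by edgeR) and in the DESeq2 Wald test (log2 -0.42, adjusted p = 0.00182). The scaling bears on all of these values. With total UMIs alone, the median log2 difference over all genes was 0.40 where TMM gave 0.00, and the differences of the 10 genes shifted by about as much. Tnrc6a then stood at -0.04 (adjusted p = 0.471) and Ago1 turned to 0.28 (adjusted p = 0.0133). Under that scaling 60.8% of all calls were higher in germ cells, against 49.9% with TMM. Ago2 stayed lower in germ cells (log2 -1.60), and the other 7 genes stayed higher. Leaving out vehicle 1 or vehicle 2 also took the call from Tnrc6a (log2 -0.30 and -0.33, adjusted p = 0.366 and 0.322).

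**Figure D2:**
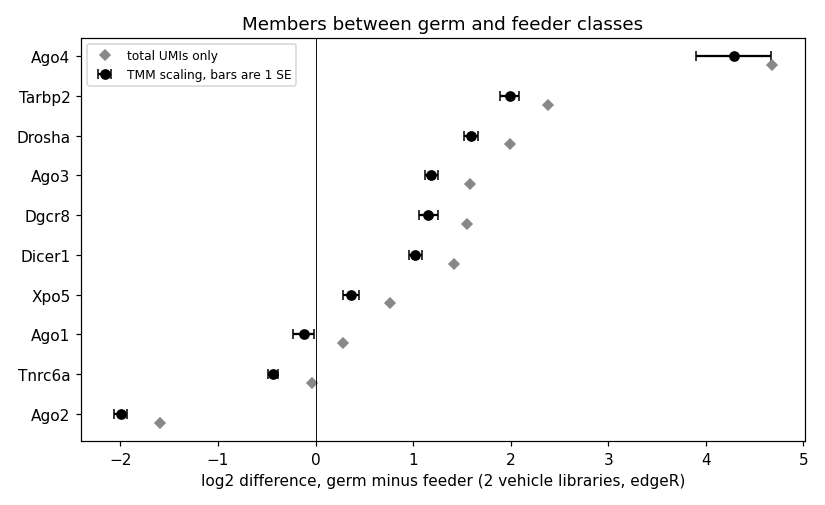
Log2 difference between germ and feeder cells of the 2 vehicle libraries for each of the 10 genes, with TMM scaling (black, bars are 1 SE) and with total UMIs only (grey diamonds). The grey points lie about 0.40 to the right, which carries Ago1 across 0 and leaves Ago2 at -1.60.

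The levels were also read per cell. Feeder cells had median totals of 2448 to 3896 UMIs and germ cells 1322 to 2091. Without scaling, Ago2 gave 0.0619 and 0.0738 UMIs per germ cell against 0.364 and 0.414 per feeder cell in vehicle 1 and vehicle 2, and Tnrc6a gave 0.249 and 0.282 against 0.490 and 0.541. Dicer1 was still higher per germ cell (0.201 and 0.232 against 0.151 and 0.155), as was Ago3 (0.222 and 0.288 against 0.164 and 0.159). Xpo5 gave 0.0873 and 0.107 UMIs per germ cell and 0.102 and 0.114 per feeder cell. Thus the order of the classes for Xpo5 depended on whether levels are read in CPM or per cell.

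Single cells held few of these molecules. With each cell thinned to 1000 UMIs, 44.4% and 45.6% of vehicle germ cells had a UMI of any of the 10 genes, against 31.3% and 32.6% of vehicle feeder cells. In EV 1 the shares were 46.6% of 178 germ cells and 30.9% of 2324 feeder cells. Without thinning the vehicle shares were 67.3% and 71.3% of germ cells and 70.7% and 73.5% of feeder cells, and those of EV 1 were 55.9% and 58.2%. Ago2 was seen in 2.53% (exact 95% interval 2.08% to 3.05%) and 3.38% (2.88% to 3.94%) of thinned vehicle germ cells, and in 9.20% (8.05% to 10.5%) and 9.14% (8.02% to 10.4%) of thinned vehicle feeder cells. For Ago4 it was 22 of 4265 and 39 of 4671 germ cells against 2 of 2271 and 1 of 2417 feeder cells. In EV 1 no thinned feeder cell of 2324 had an Ago4 UMI, which allows a share of up to 0.159% (exact interval). This limits the share of cells with a UMI at that depth, not the share of cells that express Ago4. Intervals on cells and UMIs cover counting error only.

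The wider pathway was read from a list of 55 further genes with textbook roles. Of these, 38 were higher in vehicle germ cells, 11 were higher in vehicle feeder cells and 6 did not pass the test, where 43.0% and 43.1% of all genes tested were called in these directions. The counts by role given next stand against the same shares. The median log2 difference of the 55 genes was 0.86, against 1.09 for the 10 genes and 0.00 for all genes tested. With total UMIs alone, 45 were higher in germ cells and 6 in feeder cells, and 3 genes called with TMM changed sign (Ddx17, Hspa8 and Dis3l2).

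Among 11 genes of nuclear processing and export, 9 were higher in germ cells. The RNA helicase Dhx9 led them (237 and 257 CPM in germ cells against 66.8 and 61.5 CPM in feeder cells, log2 1.55, SE 0.05), and the helicase Ddx17 was lowest (log2 -0.19, SE 0.05). The direction of Ddx17 turned with the scaling. It measured 95.8 and 105 CPM in germ cells against 82.6 and 91.1 CPM in feeder cells, and with total UMIs alone it was called higher in germ cells (log2 0.21, SE 0.05, adjusted p = 0.000119 by edgeR). The 8 Dicer partners and loading chaperones split, 4 higher and 3 lower. Prkra, the gene of PACT, an RNA-binding Dicer partner related to Tarbp2, was lower in germ cells, with 13.0 and 13.2 CPM against 35.0 and 40.2 CPM (log2 -1.93, SE 0.10). Tarbp2 and Prkra thus differed between the vehicle classes in opposite directions. The cochaperone Fkbp4 was the highest of that group (log2 1.65, SE 0.05).

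Of 23 silencing effectors, 15 were higher in germ cells and 4 lower. The deadenylase gene Pan2 was at one end (38.4 and 39.4 CPM against 8.89 and 8.46 CPM, log2 1.77, SE 0.11) and Limd1, a LIM protein that binds Argonaute, at the other (19.4 and 18.8 CPM against 43.1 and 45.7 CPM, log2 -1.62, SE 0.09). Pan3, the partner of Pan2, and Tnrc6b and Tnrc6c, the paralogs of Tnrc6a, are added here with their values seen. Pan3 was lower in germ cells (log2 -0.85, SE 0.05), while Tnrc6b (0.56, SE 0.04) and Tnrc6c (0.82, SE 0.05) were higher, unlike Tnrc6a.

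The 10 genes of hairpin control and microRNA turnover held the widest differences, 7 higher and 3 lower. Trim71, a ubiquitin ligase of early embryos and germ cells and a classic let-7 target, had 180 and 201 CPM in germ cells and 4.08 and 3.53 CPM in feeder cells (log2 5.25, SE 0.09). Lin28a (19.6 and 19.2 CPM against 0.732 and 0.372 CPM, log2 4.74, SE 0.25) and Lin28b (91.2 and 88.8 CPM against 5.54 and 4.28 CPM, log2 3.80, SE 0.11) were also mostly germ transcripts. The 3′ UTRs of Trim71 and Lin28b each held 4 matches to the let-7 seed and that of Lin28a held 2. Of the 55 genes, 5 held a match in the 3′ UTR and 12 in the coding sequence. Over all 21901 protein-coding genes the shares were 7.52% and 12.8%, not adjusted for length. Zswim8, which serves target-directed microRNA decay, went the other way, with 8.68 and 8.08 CPM in germ cells against 34.7 and 41.1 CPM in feeder cells (log2 -2.59, SE 0.11). All 3 PIWI genes were higher in germ cells, from Piwil2 (52.7 and 62.6 CPM against 1.78 and 2.32 CPM, log2 4.40, SE 0.14) down to Piwil4 (log2 1.61, SE 0.24). Adjusted p-values of the list genes given here with a log2 difference were at most 0.000793 (Ddx17, edgeR with TMM scaling). That of Hspa8, named above for its change of sign, was 0.0252 in the same edgeR fit.

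**Figure D3:**
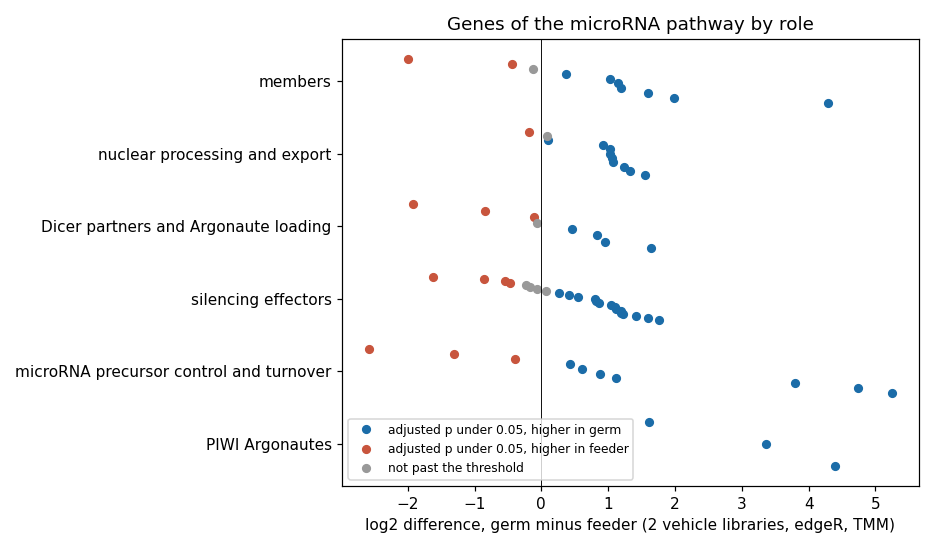
Log2 difference between germ and feeder cells of the 2 vehicle libraries (edgeR, TMM) for the 10 genes in the first line and for 55 further pathway genes by role, 1 point per gene. Blue points passed the threshold as higher in germ cells (38 of the 55), red points as higher in feeder cells (11), and grey points did not pass (6).

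Genes with the most similar pattern over 10 sums (germ cells in S, in G2/M and in neither, and cycling and other feeder cells, each in 2 vehicle libraries) were looked up among 11769 genes. The correlations are descriptions, since the sums share libraries and the contrast of the classes dominates them. Dicer1 was most like Ubn1, Oxsr1 and Ppfia1 (Pearson r 0.996, 0.996 and 0.995), Drosha like Ankhd1, Agap1 and Hcfc1 (0.996, 0.996 and 0.995), and Dgcr8 like Mbnl3, Atm and Phf13 (0.991, 0.990 and 0.990). Tarbp2 was most like Gm40988, Rasd2 and March3 (0.995, 0.991 and 0.991). Among the Argonautes, Ago3 was most like Slx4ip, Eya3 and Pus7l (0.993, 0.993 and 0.992), Ago2 like Hs6st1, Cap1 and Arhgef40 (0.994, 0.993 and 0.992), and Ago1 like Saxo2, Rps6ka3 and Plag1 (0.974, 0.973 and 0.946). Xpo5 (Kcng3, Ptdss1 and Sp2, 0.961, 0.954 and 0.954) and Tnrc6a (Memo1, Osbpl3 and Pfkfb3, 0.911, 0.910 and 0.894) had looser neighbours, and Ago4 was below the minimum of 200 UMIs.

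The next comparison was within vehicle germ cells, between cells scored as G2/M (1898 and 1972 cells) and as S (2370 and 2670 cells). Only 143 and 141 germ cells were scored as neither. Of the 10 genes, 3 were higher in G2/M and 1 was higher in S, where 9.31% and 7.13% of 14364 genes were called in these directions. Ago4 measured 4.61 and 6.97 CPM in S and 9.63 and 10.4 CPM in G2/M (log2 0.80, SE 0.25, adjusted p = 0.0130 by edgeR), which rests on 21 and 38 against 45 and 55 UMIs. Tnrc6a measured 106 and 113 CPM in S and 125 and 131 CPM in G2/M (log2 0.26, SE 0.06, adjusted p = 0.000303 by edgeR). Tarbp2 measured 52.1 and 49.9 CPM in S and 63.3 and 57.8 CPM in G2/M (log2 0.29, SE 0.09, adjusted p = 0.0136 by edgeR). These 3 genes were higher in G2/M in both libraries, and the share of all genes with the same order in both was not counted. In the cells scored as neither, Tnrc6a measured 159 and 158 CPM (35 and 39 UMIs), above its G2/M values. Tarbp2 measured 36.4 and 28.4 CPM (8 and 7 UMIs) there, and Ago4 had 1 UMI in each library. EV 1 did not enter the fit and had few UMIs per phase. Its germ cells gave 169 CPM in S (30 UMIs) and 117 CPM in G2/M (13 UMIs) for Tnrc6a, and 11.3 CPM (2 UMIs) and 9.0 CPM (1 UMI) for Ago4, both in the other order. For Tarbp2 they gave 45.0 CPM (8 UMIs) and 63.0 CPM (7 UMIs), in the same order.

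Dgcr8 went the other way, with 44.4 and 46.9 CPM in S and 32.5 and 36.3 CPM in G2/M (log2 -0.36, SE 0.11, adjusted p = 0.00560 by edgeR). In EV 1 it measured 16.9 CPM in S (3 UMIs) and 9.0 CPM in G2/M (1 UMI). Its partner Drosha did not pass the test (log2 -0.12, SE 0.07, adjusted p = 0.230 by edgeR), with 96.4 and 104 CPM in S and 82.0 and 96.7 CPM in G2/M. Dicer1 was level (95.1 and 103 CPM in S, 92.9 and 99.6 CPM in G2/M, with an interval of the log2 difference from -0.14 to 0.13). Ago1, Ago2, Ago3 and Xpo5 also missed the threshold. The DESeq2 Wald test called 0 of the 10 genes in this comparison, with 1 gene, Tnrc6a, at an unadjusted p under 0.05 and no adjusted p for Ago4. Its log2 differences were close to those of edgeR (-0.37 for Dgcr8, 0.28 for Tarbp2 and 0.26 for Tnrc6a). It called 1.64% of all genes, against 16.4% with edgeR. Cells in G2/M also had more UMIs, with medians of 2294 and 2547 against 1775 and 1886 in S, and the part of this depth in the differences was not tested. Of the 55 pathway genes, edgeR called 13 higher in G2/M and 4 higher in S, against 9.31% and 7.13% of all genes tested.

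**Figure D4:**
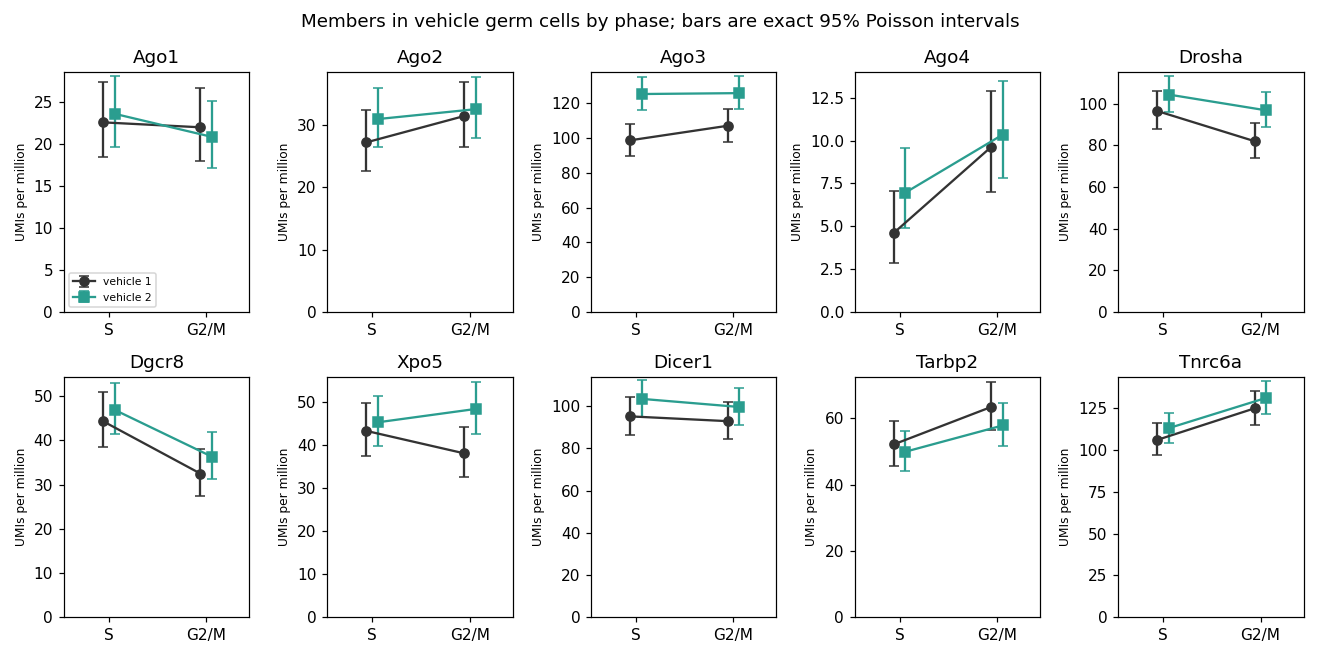
Level of each of the 10 genes in vehicle germ cells scored as S or as G2/M, in CPM (linear axis from 0), for vehicle 1 (black circles) and vehicle 2 (green squares) with exact 95% Poisson intervals. The lines rise in both libraries for the called genes Ago4, Tarbp2 and Tnrc6a and fall in both for the called gene Dgcr8. Among genes that missed the threshold, Ago2 and Ago3 also rise in both and Ago1, Drosha and Dicer1 also fall in both.

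The study's main contrast was EV against vehicle. With 1 EV library analysed here there is no test, and the ratios compare libraries, not treatments. In germ cells the EV 1 library gave 4 to 51 UMIs per gene. The germ cells of EV 1 were within 2-fold of the vehicle mean for all 10 genes (0 past the fold) while 18.4% of the 13365 genes that reached 50 UMIs in germ cells lay beyond 2-fold. The median log2 ratio of the 10 genes was -0.08 (0.08 over all genes), and the 95% counting interval of the ratio held 1 for each of the 10.

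Dgcr8 and Ago4 had the widest ratios in germ cells. Dgcr8 measured 21.5 CPM (7 UMIs) in EV 1 against 38.4 and 41.5 CPM, a ratio to the pooled vehicle libraries of 0.537 (exact interval 0.215 to 1.11). Ago4 measured 12.3 CPM (4 UMIs) against 7.09 and 8.54 CPM, a ratio of 1.56 (0.421 to 4.08). Tnrc6a, with the most UMIs, measured 157 CPM in EV 1 against 116 and 123 CPM (1.31, interval 0.972 to 1.73). Dicer1 measured 73.8 CPM against 93.7 and 101 CPM (0.756, interval 0.484 to 1.13), Drosha 76.9 against 89.4 and 100 CPM (0.809, interval 0.522 to 1.20), and Ago3 111 CPM, between 104 and 125 CPM. Changes within these intervals were not detectable in the germ cells of EV 1 at this depth.

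Feeder cells were deeper, with 60 to 754 UMIs in EV 1 for the 9 genes that reached 50 UMIs over the 3 libraries. None of the 9 lay beyond 2-fold, against 7.32% of 12877 genes, and the median log2 ratio was -0.16, near the -0.13 over all genes. Ago2 measured 111 CPM in EV 1 against 89.7 and 95.1 CPM in vehicle 1 and vehicle 2 (ratio 1.20, exact interval 1.10 to 1.31). EV 1 lay above both vehicle libraries, and of all genes that reached 50 UMIs in feeder cells 87.2% lay outside the vehicle range in EV 1. Dicer1 measured 27.7 CPM against 37.1 and 35.7 CPM (0.762, interval 0.646 to 0.895), and Tnrc6a 110 CPM against 121 and 124 CPM (0.892, interval 0.821 to 0.969). The lower value of Tnrc6a rests on the CPM scale, since its log2 ratio of -0.16 became -0.04 with TMM factors and -0.03 with DESeq2 size factors. Under the same factors Dicer1 went from -0.39 to -0.27 and -0.26, and Ago2 from 0.27 to 0.39 and 0.40. For the other 6 genes the interval held 1. Dgcr8 was among these, with 16.1 CPM against 13.2 and 14.0 CPM in feeder cells (1.18, interval 0.935 to 1.48), on the other side of 1 from its germ ratio.

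The metallothionein genes Mt1 and Mt2 differed in the feeder cells of EV 1, of which 81.9% lay above the median share of these genes, against 50.9% and 49.2% in vehicle 1 and vehicle 2. The 10 genes were therefore also read within each side. Dicer1 in cells below the median measured 44.0 CPM in EV 1 against 43.1 and 42.2 CPM, and above it 24.7 CPM against 31.5 and 29.2 CPM. Tnrc6a measured 153 CPM against 139 and 134 CPM below the median, and 101 CPM against 104 and 115 CPM above it. Ago2 was higher in EV 1 on both sides, with 136 CPM against 93.8 and 102 CPM below and 107 CPM against 85.9 and 88.6 CPM above. The lower values of Dicer1 and Tnrc6a in EV 1 feeder cells were thus not seen below the median, where EV 1 gave 47 and 163 UMIs, while the higher value of Ago2 was seen on both sides. Dgcr8 and Ago3 were also above both vehicle libraries on both sides. Dgcr8 measured 23.4 CPM (25 UMIs) against 14.2 and 15.5 CPM below the median and 14.7 CPM against 12.2 and 12.5 CPM above it, and Ago3 measured 68.4 CPM (73 UMIs) against 52.6 and 44.0 CPM and 32.5 CPM against 28.84 and 28.80 CPM.

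Without the classes the libraries looked different. Summed over all kept cells, Dicer1 measured 65.5 and 68.4 CPM in vehicle 1 and vehicle 2 and 33.4 CPM in EV 1, and Drosha 56.1, 61.3 and 25.2 CPM. Tarbp2 measured 33.9, 31.7 and 10.5 CPM, and Ago4 3.85, 4.46 and 0.399 CPM. Ago2 went up, from 59.6 and 64.1 CPM to 115 CPM. These sums were added with the values seen. With 0.5 UMI added, 3 of the 10 genes (Drosha, Tarbp2 and Ago4) had a log2 ratio below -1, against 21.2% of 16287 genes. Dicer1 stood at the limit, with a log2 ratio of -0.9989. Germ cells were 4.75% of the kept cells of EV 1 and 53.4% and 55.4% of those of vehicle 1 and vehicle 2. In these sums 8 of the 10 genes were lower in EV 1 than in the vehicle mean, as were 59.0% of all genes, whose median log2 ratio was -0.19. Within either class none that reached 50 UMIs lay beyond 2-fold, and the part of the class shares in the sums was not tested. With 1 EV library, the treatment and the library cannot be told apart.

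**Figure D5:**
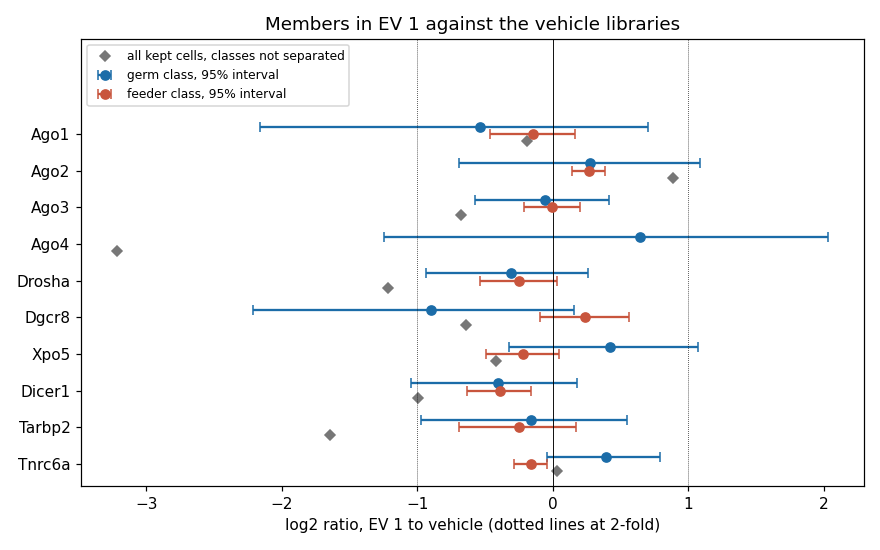
Log2 ratio of EV 1 to the pooled vehicle libraries for the 10 genes in germ cells (blue) and feeder cells (red) with exact 95% counting intervals, and the log2 ratio to the vehicle mean over all kept cells (grey diamonds), with dotted lines at 2-fold. All blue and red points lie inside the dotted lines, and the diamonds of Ago4, Drosha and Tarbp2 lie to the left of them. Ago4 has no point for feeder cells, where it had 6 UMIs.

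Of the pathway list, 2 of 55 genes in germ cells and 3 of 51 in feeder cells lay beyond 2-fold, all of them lower in EV 1, against 18.4% of all genes in germ cells and 7.32% in feeder cells. Over all genes, 1531 lay above and 927 below in germ cells, and 311 above and 631 below in feeder cells. In germ cells the widest ratio was that of Cnot9, a subunit of the CCR4-NOT deadenylase complex, with 24.6 CPM (8 UMIs) against 59.29 and 58.02 CPM (ratio 0.420, interval 0.181 to 0.830). Trim71 measured 98.5 CPM (32 UMIs) against 180 and 201 CPM (0.515, interval 0.351 to 0.728). The germ markers of that class were also lower in sum in EV 1, at 738 CPM against 1007 and 1033 CPM, though Ddx4, Mael and Taf4b were higher. Zbtb16 stood at 46.2 CPM against 169 and 172 CPM, and Gfra1 at 98.5 CPM against 206 and 215 CPM. The part of these differences in the value of Trim71 was not tested. The splicing factor gene Srsf3 measured 311 CPM against 545 and 529 CPM (0.579, interval 0.471 to 0.705). Lin28a (15.4 against 19.6 and 19.2 CPM) and Lin28b (80.0 against 91.2 and 88.8 CPM) had intervals that held 1. Prkra, the Dicer partner that was higher in vehicle feeder cells, measured 24.6 CPM (8 UMIs) against 13.0 and 13.2 CPM (1.88, interval 0.803 to 3.76). Feeder markers in that class measured 585 CPM against 326 and 267 CPM, and the part of that RNA in the value was not tested. In feeder cells Prkra measured 24.3 CPM in EV 1 against 35.0 and 40.2 CPM (0.644, interval 0.541 to 0.763), so that the classes of EV 1 were level. Piwil1 had 1 UMI in EV 1. In feeder cells the helicase gene Mov10 measured 7.22 CPM against 17.5 and 16.7 CPM (0.423, interval 0.307 to 0.572) and Fkbp4 36.1 CPM against 76.1 and 78.3 CPM (0.467, interval 0.407 to 0.535). Dhx9 measured 46.1 CPM against 66.8 and 61.5 CPM (0.721, interval 0.635 to 0.816). Trim71 was at 8 UMIs in EV 1 feeder cells (0.311, interval 0.130 to 0.644), a class in which germ marker RNA measured 10.2 CPM against 31.7 and 27.1 CPM.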

How the data were processed

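The values deposited by the authors were unnormalized UMI counts of each gene in each called cell, 1 matrix per library, made by them with Cell Ranger 7.0.1 on mm10 (GENCODE vM23). The setting for intronic reads is not given in the sources used here. The study's own limits were applied to cells (over 400 and under 4000 genes, under 10% mitochondrial UMIs), and doublets were removed by Scrublet score at 0.8% per 1000 cells (scanpy 1.11.5, Python 3.11.15). This left 8263, 8637 and 4779 cells of vehicle 1, vehicle 2 and EV 1. Groups came from the sample titles. UMIs were summed per library and class or phase, and phases were scored with the lists of Seurat 5.3.0 (43 genes used for S, 54 for G2/M). Sums were compared with edgeR 4.0.16 (filterByExpr, TMM factors, quasi-likelihood test, library as a block, 1 residual degree of freedom before moderation for classes) and Benjamini-Hochberg adjustment over all genes. DESeq2 1.42.0, other scalings, no filter, other class rules, all barcodes and left-out libraries were the alternatives. EV 1 was compared as the log2 ratio of its CPM to the mean of the vehicle libraries after 0.5 UMI was added to every sum, beyond 2-fold meaning an absolute log2 ratio above 1. Poisson, conditional and binomial intervals are exact, at 95%. Genes named were the 10 members, Lin28a and Lin28b, and in each role group of the 55-gene list the called genes with the highest and lowest germ to feeder difference and the gene with the widest EV ratio in each class. The members and lists were chosen with earlier results of these data known. The fits were tested on simulated data. Positions are GRCm38, from GENCODE vM21.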

Additional observations from a re-analysis of the deposited data

Results flagged for a closer look

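Hsp90aa1, the gene of a chaperone that loads Argonaute proteins, stood below both vehicle libraries in the germ cells of EV 1 and above both in its feeder cells. The log2 ratio of EV 1 to vehicle was -0.21 in germ cells (1625 CPM against 1866 and 1895 CPM) and 0.38 in feeder cells (958 CPM against 724 and 750 CPM), and both counting intervals left out a ratio of 1. In EV 1, 91.6% of the genes that reached 50 UMIs in germ cells and 87.2% of those in feeder cells lay outside the vehicle range. The difference between the classes was not tested, since the expression of EV 2 was not analysed here.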

How the results depend on the processing

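The number of the 10 genes called between germ and feeder cells was 9 and stayed between 7 and 9 under every alternative run (7 when either vehicle library was left out, with EV 1 in its place). Without the replicate block the fits called 9 of the 10 genes and 47 of the 55 pathway genes between the classes, and 4 of the 10 between phases. Library numbers pair the classes and phases because both come from the same library, and no paired analysis of EV against vehicle was possible because the expression of EV 2 was not analysed here. With total UMIs alone Ago1 turned to 0.28. For Xpo5 between phases, which was not called, the sign turned with DESeq2 (-0.0021) and with all 3 libraries (-0.0034). DESeq2 called 0 of the 10 genes between phases, at log2 differences close to those of edgeR (-0.37 for Dgcr8, 0.28 for Tarbp2 and 0.26 for Tnrc6a). Over all genes, edgeR called 86.1% between classes and 16.4% between phases, DESeq2 65.3% and 1.64%, and edgeR without a filter 57.7% and 8.76%. The fit of all 3 libraries between phases held 8 of the 10 genes, without Ago1 and Ago4, and called 3 of them. Over all genes it called 29.5%, and the fit with no replicate block called 10.8%. The cause of these differences was not tested.

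In germ cells of EV 1, 2 genes lay beyond an absolute log2 ratio of 0.58 (38.4% of all genes), 1 beyond 2-fold with at least 3 marker UMIs per cell (Dgcr8, at -1.03), and 3 over all kept cells, where the median was -0.66. Without vehicle 1 or vehicle 2 the germ median was -0.11 or -0.03 and the feeder median -0.18 or -0.19. The feeder median moved to -0.036 with TMM, to -0.033 with DESeq2 size factors and to 0.17 in cells low in Mt1 and Mt2. Shares of cells with a UMI of any of the 10 genes follow depth. At 2000 UMIs per cell they were 69.7% and 73.1% of vehicle germ cells, 51.9% and 51.5% of vehicle feeder cells, and 69.2% and 48.7% of EV 1 germ and feeder cells. Unthinned, the same shares were 67.3%, 71.3%, 70.7%, 73.5%, 55.9% and 58.2%. Depth limits the germ cells of EV 1 most, with 227 cells and 4 to 51 UMIs per gene.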
